A study of Mus musculus with 3 samples.

Results

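The microvillus core and intermicrovillar adhesion genes are the 10 genes Vil1, Ezr, Pls1, Myo1a, Slc9a3r1, Cdhr2, Cdhr5, Ush1c, Myo7b and Eps8, taken by name from the 13891 genes of the deposited table. They were followed through stem, cycling, early, mid, duodenal, proximal, mature and ileal enterocyte-like cells, goblet-, Paneth- and tuft-like cells, and through 3 libraries. All 3 libraries were made from the intestine of male ICR mice, an outbred strain, entered at 3 weeks of age and killed after 2 weeks of daily gavage. The AOS 0 mice were controls that received vehicle (water) by gavage. The B + A 0 mice received a single injection of busulfan, an alkylating drug, at 40 mg/kg and then vehicle, and the B + A 10 mice received the same busulfan and then alginate oligosaccharides (AOS) at 10 mg/kg. Cells of 6 mice were combined on 1 lane of the 10x Chromium 3′ system per group, so each group is 1 library, the mice cannot be separated, and no test between groups was possible. For the libraries given here as B + A 0 and B + A 10, 1 label field names another group than the sample titles do, and the titles were followed.

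An enterocyte carries a dense carpet of microvilli on its apical side, the brush border, which enlarges the surface for digestion and uptake. Each microvillus holds a core of parallel actin filaments bundled by villin (Vil1), plastin 1 (Pls1) and espin (Espn), with EPS8 at the tip, and tied to the membrane by the motor myosin 1a (Myo1a) and by ezrin (Ezr) with its scaffold partner NHERF1 (Slc9a3r1). Neighbouring microvilli are joined at their tips by the protocadherins CDHR2 and CDHR5, which are held inside the cell by harmonin (Ush1c) and the motor myosin 7b (Myo7b), together with ANKS4B and CALML4.

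Values for the 3 libraries are always given with AOS 0 first, B + A 0 next and B + A 10 last. The table held 4106, 3195 and 5352 cells, with medians of 7371, 6407 and 3505 unique molecular identifiers (UMIs, each standing for 1 captured RNA molecule) per cell, so the B + A 10 library was the shallowest. Between 17 and 34 cell barcodes were shared by each pair of libraries. Of 12653 cells, 965 in 3 clusters were given no class: 429 led by Slpi, 384 led by Muc2 of which 58.3% were called doublets, and 152 led by hormone genes. A level below is the number of UMIs of a gene per 10000 UMIs of all genes, summed over the cells of a class, and since a 3′ library counts a molecule once, transcript length does not enter. Intervals are exact 95% intervals (Poisson for a level, binomial for a ratio or a percentage) that cover counting error only, and the spread between mice is not known.

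The promoters of 3 members are shown, that of Vil1 because it is the core gene with the most UMIs. Those of the protocadherin genes Cdhr2 and Cdhr5 are shown because their ratios of mature to mid enterocytes differ although their proteins meet. All 3 sequences are the 250 bases before the start site in RefSeq (build GRCm38.p6), 5′ to 3′ on the strand of the gene. Capitals mark a CArG box, the motif of serum response factor. Vil1 lies on chr1:74409134-74409383 (plus strand), Cdhr5 on chr7:141276787-141277036 (minus strand) and Cdhr2 on chr13:54701213-54701462 (plus strand).
Vil1: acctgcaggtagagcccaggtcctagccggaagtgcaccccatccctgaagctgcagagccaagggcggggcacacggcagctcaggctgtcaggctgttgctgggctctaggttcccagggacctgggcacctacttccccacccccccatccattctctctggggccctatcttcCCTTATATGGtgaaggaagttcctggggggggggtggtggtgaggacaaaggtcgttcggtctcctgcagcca
Cdhr5: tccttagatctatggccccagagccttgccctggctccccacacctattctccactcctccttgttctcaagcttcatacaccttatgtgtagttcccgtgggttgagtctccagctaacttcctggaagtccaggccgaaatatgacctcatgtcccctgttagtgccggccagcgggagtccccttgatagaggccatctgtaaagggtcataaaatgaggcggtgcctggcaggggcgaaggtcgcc
Cdhr2: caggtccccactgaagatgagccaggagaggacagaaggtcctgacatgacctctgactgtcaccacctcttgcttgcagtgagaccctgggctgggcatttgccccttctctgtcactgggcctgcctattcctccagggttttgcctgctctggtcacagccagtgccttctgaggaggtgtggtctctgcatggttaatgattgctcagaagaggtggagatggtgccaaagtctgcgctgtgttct

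RefSeq windows of 250 bases before to 50 bases after the start site were matched by symbol for 8 members; Eps8 is named only, and no sequence of Myo7b is shown. Windows were searched on both strands for the motifs of GATA factors (AGATAA), CDX2 (TTTATNG), HNF4 (CAAAGTCCA) and HNF1 (by name), for a TATA box (TATAAA) and for the CArG box by name. The single match in 8 member windows was the CArG box of Vil1, which begins 73 bases before the start site. Of 32851 windows of all genes, 1.63% held a CArG box, 11.2% the GATA motif, 10.9% the CDX2 motif, 13.6% the TATA box, 0.475% the HNF4 motif and 0.14% the HNF1 motif. A missing match says only that these letters are not in the window. In the same build Vil1 spans chr1:74409376-74435559, Pls1 chr9:95752642-95845311, Myo1a chr10:127705170-127720940, Slc9a3r1 chr11:115163341-115181181, Ezr chr17:6738041-6782784 and Eps8 chr6:137477245-137654876. Of the adhesion genes, Cdhr2 spans chr13:54701461-54736662, Cdhr5 chr7:141269083-141276786, Ush1c chr7:46195350-46238503 and Myo7b chr18:31959234-32036961, and all 10 are protein-coding.

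The first question was where along the epithelium the 10 genes were high. Summed over the members, the level was 7.92 UMIs per 10000 in stem-like cells, 8.67 in cycling cells and 19.1 in early enterocytes. It was 40.004 in mid, 51.1 in duodenal, 56.5 in proximal, 77.5 in mature and 48.1 in ileal enterocytes. Goblet-like cells held 13.9 and Paneth-like cells 5.98. In the 5 classes from mid to ileal, summed and called villus enterocytes here (4480 cells), the sum was 51.9, which is 6.56 times that of the 853 stem-like cells. Within single libraries this ratio was 7.08 (6.70 to 7.48), 6.66 (6.26 to 7.10) and 6.004 (5.69 to 6.34), so the step from crypt to villus was present in each library.

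**Figure D1:**
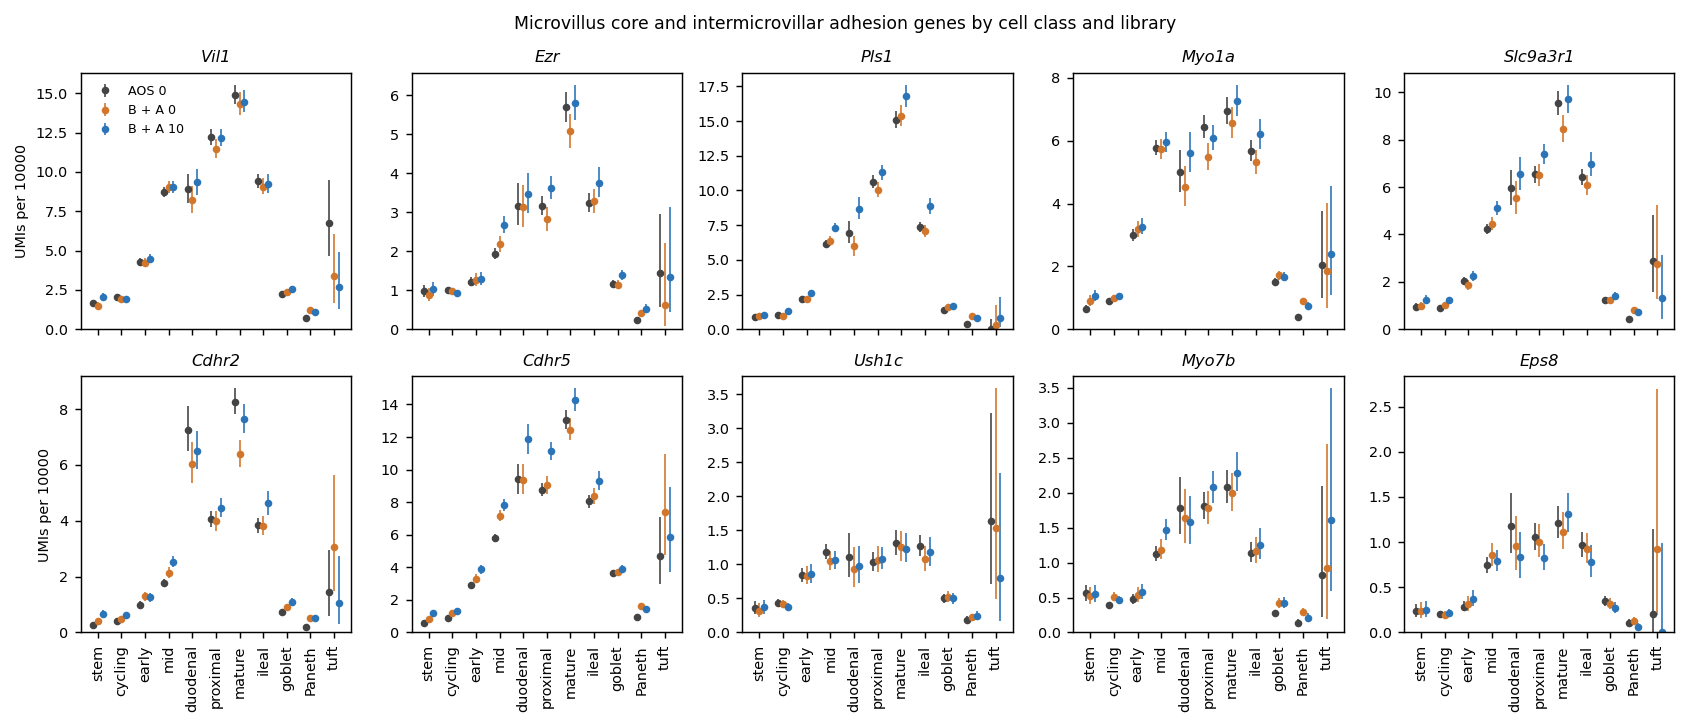
Level of each member (UMIs per 10000, linear axes from 0 with a scale of their own) in 11 classes, with 1 point for each library and bars for the exact 95% counting interval. Levels were low in stem and cycling cells and highest in mature enterocytes for 9 members, while Ush1c stayed between 1.00 and 1.27 in the villus classes with the 3 libraries summed, and the tuft-like points rest on 6 to 13 cells each.

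All 10 members stood at least 2-fold higher in villus enterocytes than in stem-like cells, where 25.1% of the 6562 genes measured (at least 300 UMIs in both together) did so and the median ratio of all genes was 1.06. The largest ratios belonged to Cdhr5 (10.8, interval 9.76 to 12.0), Pls1 (9.71, 8.84 to 10.7) and Cdhr2 (9.60, 8.34 to 11.1). Then came Myo1a at 6.997, Vil1 at 6.12 and Slc9a3r1 at 6.02. Eps8 (3.88), Ezr (3.40), Ush1c (3.25) and Myo7b (2.82) had the smallest ratios, so both the bundle and the adhesion complex held genes with a large and genes with a small step. In early enterocytes 6 of 10 members had passed 2-fold, against 12.8% of genes. Myo7b stood there at 0.951 times its stem level, with an interval (0.808 to 1.12) that spans 1. These classes were named from marker genes that do not include the members, and the members were kept out of the clustering.

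Villin, which bundles, caps and severs actin filaments, had the highest level of the members in stem-like cells. In mature enterocytes its level was 14.9, 14.3 and 14.5 in the 3 libraries. In stem-like cells the 3 values were 1.64, 1.51 and 2.03. Proximal (12.0), ileal (9.27), mid (8.90) and duodenal (8.85) enterocytes followed, and the libraries of the last pair overlapped. After each cell was thinned to 1000 UMIs, 76.1% of mature enterocytes and 17.1% of stem-like cells held a Vil1 UMI.

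Plastin 1, also called fimbrin, had a level close to that of villin and a steeper course. It was at 15.1, 15.4 and 16.8 in mature enterocytes of the 3 libraries. In stem-like cells it was at 0.898, 0.946 and 1.00. Mature enterocytes stood above mid enterocytes 2.40-fold (2.31 to 2.49), and in mature cells Pls1 passed Vil1 (15.7 against 14.6 with the libraries summed), while it lay below Vil1 in every other enterocyte class. Eps8, which caps and bundles actin at the microvillus tip, was, with the libraries summed, the scarcest member of villus enterocytes, at 1.21, 1.11 and 1.31 in mature enterocytes and 0.234, 0.237 and 0.250 in stem-like cells. Because of its low level, the libraries of its 4 highest classes overlapped from each class to the next.

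Ezrin links the actin core to the membrane. Its level in mature enterocytes was 5.69, 5.08 and 5.79 in the 3 libraries, and in stem-like cells it was 0.974, 0.880 and 1.02. Ezr took 12.1% of all member UMIs in stem-like cells and between 5.54% and 7.16% in the villus classes, so it was a larger part of a small total in the crypt. Mature enterocytes stood above proximal enterocytes 1.72-fold (1.61 to 1.84) for Ezr, against 1.22-fold (1.17 to 1.26) for Vil1. Slc9a3r1, the scaffold that ezrin holds, was at 9.53, 8.47 and 9.71 in mature enterocytes and 0.947, 0.968 and 1.23 in stem-like cells.

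Myosin 1a, the motor that bridges core and membrane, was already high in young enterocytes. In mid enterocytes its level was 5.78, 5.72 and 5.95, and in mature enterocytes 6.95, 6.56 and 7.26. The ratio of mature to mid was 1.19 (1.14 to 1.251), and Myo1a made up 16.3% of member UMIs in early enterocytes but 8.95% in mature ones. The libraries of its proximal, mid and ileal levels overlapped, so their order is not settled.

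The adhesion genes were less alike. Cdhr5, a protocadherin with a mucin-like stretch, was at 13.05, 12.5 and 14.3 in mature enterocytes and 0.582, 0.813 and 1.17 in stem-like cells. Cdhr2, the protocadherin it binds across the gap, was at 8.27, 6.41 and 7.66 in mature enterocytes and 0.256, 0.407 and 0.660 in stem-like cells. In both crypt series B + A 10 was the highest and AOS 0 the lowest library. From mid to mature enterocytes Cdhr2 had the largest ratio of the members at 3.61 (3.40 to 3.83), against 1.96 (1.89 to 2.04) for Cdhr5. Between these classes 8 of 10 members were at least 25% higher, where 21.6% of genes were, and Myo1a and Ush1c were not.

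Harmonin, the scaffold of the adhesion complex, was nearly flat over the villus. Ush1c was at 1.31, 1.253 and 1.23 in mature enterocytes, at 1.19, 1.06 and 1.06 in mid enterocytes and at 0.359, 0.318 and 0.368 in stem-like cells. The ratio of mature to mid was 1.14 (1.02 to 1.27). Myo7b, the motor that carries the complex to the tips, was at 2.08, 1.99 and 2.29 in mature enterocytes. In stem-like cells it was at 0.561, 0.517 and 0.549, in cycling cells at 0.399, 0.512 and 0.466, and in early enterocytes at 0.476, 0.532 and 0.578. The libraries of these crypt and early classes overlapped, and the level in mid enterocytes (1.12, 1.18 and 1.47) was clear of them.

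The classes with markers of different stretches of the intestine were set side by side, since the libraries hold cells of duodenum-, proximal- and ileum-like character. For Cdhr2, duodenal enterocytes held 7.26, 6.05 and 6.51 in the 3 libraries, proximal enterocytes 4.07, 3.998 and 4.46, and ileal enterocytes 3.83, 3.81 and 4.62. Mature enterocytes, at 8.27, 6.41 and 7.66, overlapped the duodenal libraries. The duodenal libraries lay above all proximal and ileal ones, with a ratio of 1.58 (1.46 to 1.71) to proximal enterocytes. Cdhr2 was the only member at least 25% higher in duodenal than in proximal enterocytes, where 10.3% of genes were, and 2 members, Vil1 (0.738) and Pls1 (0.684), were at least 20% lower, the same fold downwards, where 13.3% of genes were. For 10 members both counts are near the share of all genes. In ileal against proximal enterocytes no member was 25% higher (13.6% of genes), and Vil1 (0.773), Pls1 (0.712) and Myo7b (0.623, interval 0.558 to 0.694) were lower by 20% or more (39.1% of genes), which is near the share of all genes. For Myo7b the ratio was 0.633, 0.656 and 0.606 in the 3 libraries. Ezr (1.04), Slc9a3r1 (0.946), Cdhr2 (0.958) and Eps8 (0.944) had ratios near 1. The classes did not differ in region alone. Markers of mature enterocytes were at 76.7 UMIs per 10000 in proximal, 63.3 in duodenal and 11.7 in ileal enterocytes. The part of maturity in the ratios between these classes was not tested.

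Outside the enterocyte line the members were low but not equally so. Goblet-like cells (2034 cells), which make mucus and carry short sparse microvilli, held Cdhr5 at 3.64, 3.72 and 3.90 in the 3 libraries, 4.50 times the stem level (4.05 to 5.01). Cdhr5 was 26.9% of the member UMIs there, against 17.3% in villus enterocytes and 10.5% in stem-like cells. Cdhr2 was 2.12 times its stem level, and the other 8 members were at 0.670 (Myo7b) to 1.90 times (Myo1a), so 2 of 10 members passed 2-fold where 10.9% of genes did. The unnamed cluster led by Muc2, of which 58.3% of cells were called doublets, had a summed level of 30.9 and stands outside the goblet-like class.

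In the 28 tuft-like cells, chemosensory cells with a tuft of long microvilli, the summed level was 20.9. Cdhr5 was at 4.71, 7.38 and 5.88 and Ush1c at 1.64, 1.54 and 0.802 in the 3 libraries, with only 9, 6 and 13 cells behind the values. Ileal enterocyte markers in these cells were at 4.92, 65.5 and 6.15 UMIs per 10000 and early enterocyte markers at 3.89, 13.8 and 6.68. Proximal markers were at 17.2, 23.7 and 34.5, and the part of enterocyte RNA in these levels was not tested. The Ush1c level of all tuft-like cells, 1.35, was the highest of the 12 classes, but its libraries overlapped those of mature enterocytes (1.23 to 1.31). Pls1 was nearly absent, with 4 UMIs in all (0, 0.308 and 0.802 per 10000 in the 3 libraries), so its level of 0.337 has an interval from 0.0918 to 0.863. Pls1 was 1.61% of the member UMIs in tuft-like cells and 17.7% in villus enterocytes, while the share of Vil1 was 21.8% in the former and 20.3% in the latter.

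**Figure D2:**
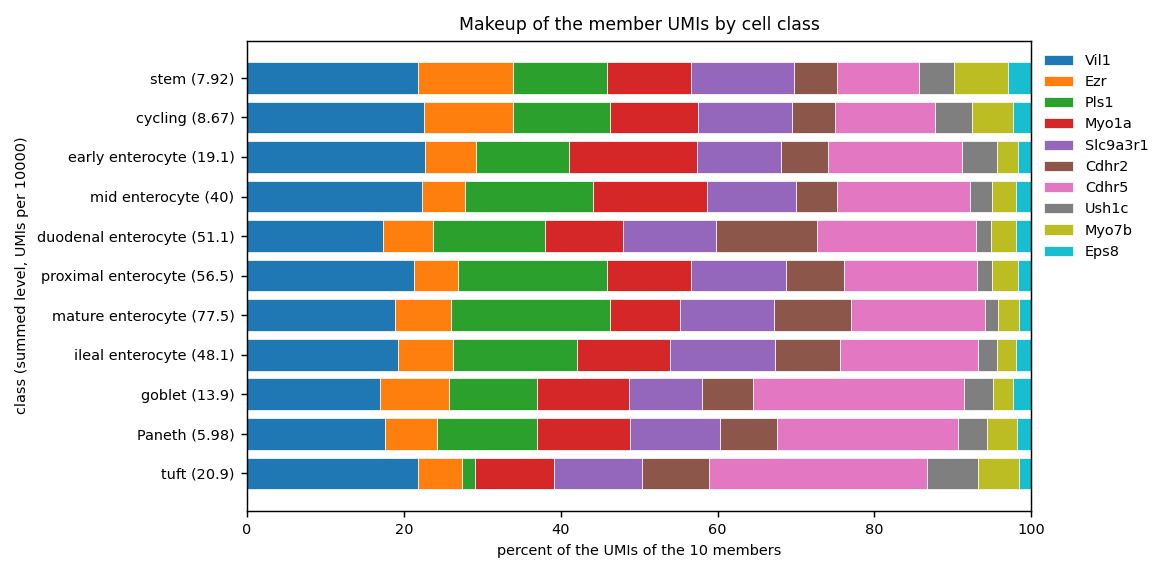
Makeup of the member UMIs in 11 classes: each bar divides the UMIs of the 10 members into their percentages, and the number beside each class name is the summed level in UMIs per 10000. Ezr shrinks from 12.1% in stem-like cells to 5.54% in mid enterocytes, Cdhr5 is widest in goblet- and tuft-like cells, and Pls1 is narrowest in tuft-like cells.

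Free RNA from broken enterocytes gives UMIs in cells that do not make them, so a list of 13 enterocyte genes (among them Apoa1, Fabp1 and Sis) was followed beside the members. Its summed level was 615.5 UMIs per 10000 in villus enterocytes, 44.3 in stem-like cells, 58.4 in goblet-like cells, 56.1 in Paneth-like cells and 220.3 in T cell-like cells. Per 1000 UMIs of this list the members had 84.3 UMIs in villus enterocytes, 106.6 in Paneth-like and 97.7 in T cell-like cells, but 178.5 in stem-like, 237.7 in goblet-like and 381.5 in tuft-like cells. T cells do not make brush borders, and the member sum in the 375 T cell-like cells, 21.5, was above that of goblet-like cells. In Paneth-like cells 0 of the 9 members measured were at least 2-fold above stem-like cells, where 2.36% of genes were. The members' levels in Paneth-like and T cell-like cells are not read as expression, and free RNA, doublets and own transcripts were not separated there: Ezr, for example, had 8.41 UMIs per 1000 of the list in T cell-like cells and 5.30 in villus enterocytes, and 5.33% of T cell-like cells were called doublets. Between libraries the enterocyte list in stem-like cells was at 32.4, 49.6 and 54.7, and the members Cdhr2 and Cdhr5 had the same order there. Beside this, the villus to stem ratio of Cdhr2 was 15.4, 9.48 and 6.81 and that of Cdhr5 14.05, 10.9 and 8.79 in the 3 libraries, while that of Pls1 was 9.74, 9.22 and 10.2. Its part in the crypt levels was not tested.

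Next the 8817 crypt and enterocyte cells were ordered by the percentage of their UMIs from the 13 enterocyte genes among those and a list of crypt genes, neither of which holds a member, and cut into 10 bins of equal size. Bins 1 and 2 held stem and cycling cells only, and the median percentage in bin 10 was 100%. Mid enterocytes were 9.41% of bin 9 and 14.3% of bin 10, and ileal enterocytes 4.31% and 12.5%. Bin 10 is therefore the end of this percentage and not only the most mature cells. From bin 1 to its highest bin Cdhr2 went from 0.305 to 6.08 and Cdhr5 from 0.583 to 11.2, ratios of 19.9 and 19.2. By library the ratio was 27.9, 16.5 and 12.2 for Cdhr2 and 22.3, 14.8 and 16.1 for Cdhr5, so Cdhr2 had the larger one in AOS 0 and B + A 0 and Cdhr5 in B + A 10. Pls1 went from 0.863 to 12.5, Myo1a from 0.582 to 6.52, Slc9a3r1 from 0.793 to 8.11 and Vil1 from 1.54 to 12.9. Ezr (4.98-fold), Eps8 (4.46-fold), Myo7b (3.57-fold) and Ush1c (3.41-fold) had the smallest spans.

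The members did not pass 50% of their highest level in the same bin. Ush1c passed 50% of its highest bin in bin 4 and Myo1a in bin 5. Vil1, Slc9a3r1, Cdhr5, Myo7b and Eps8 did so in bin 6, and Ezr, Pls1 and Cdhr2 in bin 7. In single libraries Vil1, Pls1, Myo1a, Cdhr5, Myo7b and Eps8 had the same bin in all 3, and Ush1c (4, 5 and 5), Slc9a3r1 (7, 6 and 6), Ezr and Cdhr2 (both 8, 7 and 7) differed by 1 bin. The orders of Ush1c and Myo1a before Pls1 and Cdhr2 therefore held in each library. Myo7b had a dip, from 0.536 in bin 1 to 0.380 in bin 3 before 1.91 in bin 9, and Ush1c was level from bin 6 (1.12) to bin 10 (1.16). Bin 1 drew 502 of its 882 cells from AOS 0, and the median depth went from 7426.5 UMIs in bin 1 to 3662 in bin 10. The ordering list shares Rbp2, Fabp1 and Lct with the proximal markers, so the bins mix region with position. Ileal enterocytes were 20.2% of bin 6 and 4.31% of bin 9, proximal ones 3.85% and 35.8%, and mature ones 0.227% and 41.8%. Called doublets were 7.38% of bin 4 and 8.39% of bin 5, the highest shares of the 10 bins. The part of all these differences between bins in the courses was not tested.

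**Figure D3:**
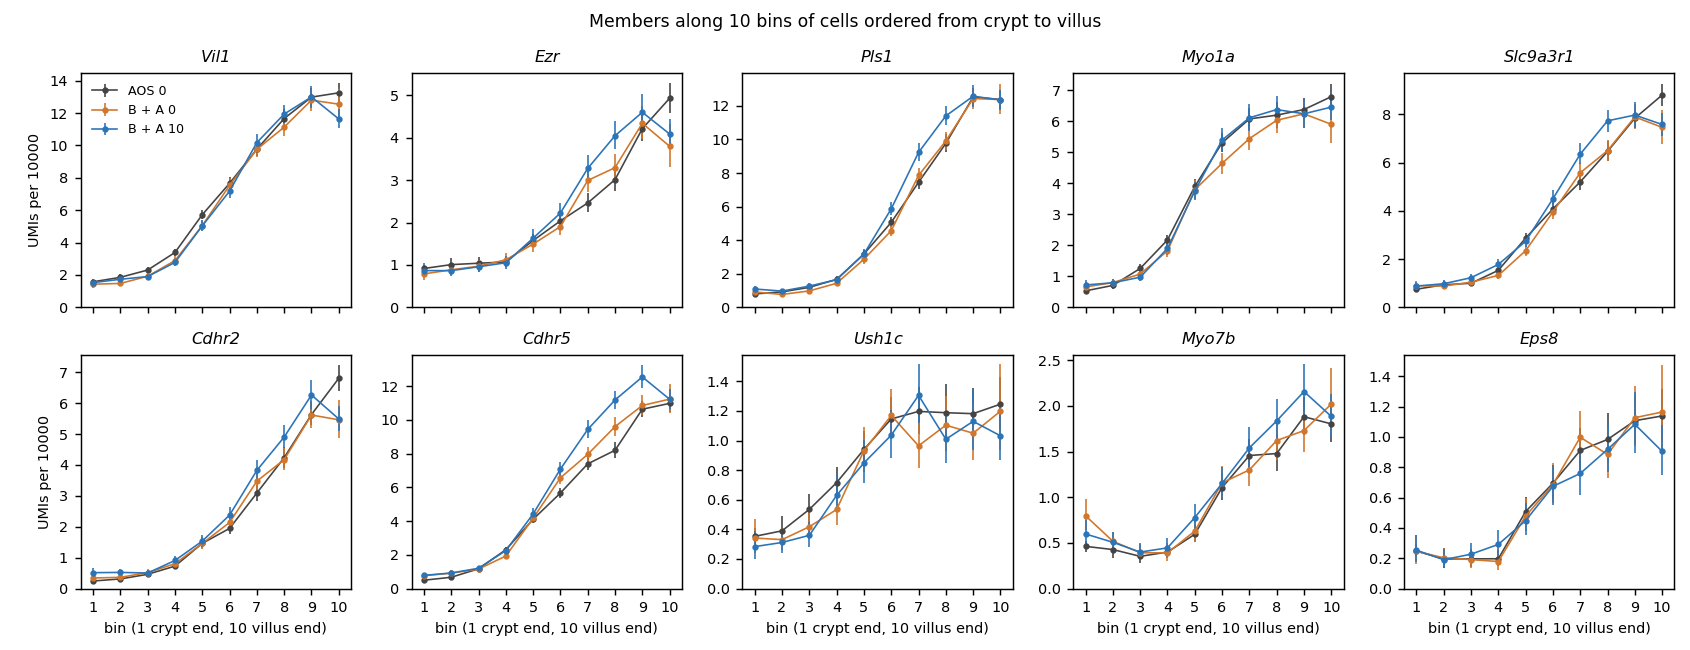
Level of each member (UMIs per 10000) in 10 bins of cells ordered by the percentage of enterocyte list UMIs, lowest (crypt end) first, with a line for each library and exact 95% counting intervals. Ush1c and Myo1a level off by about bin 6 or 7, while Pls1 and Cdhr2 climb to bin 9 or 10, and the lines of the 3 libraries run close together.

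The study asked whether busulfan disturbed microvilli and whether AOS changed this, so the members were compared between libraries in villus enterocytes. From AOS 0 to B + A 0 the summed level went from 50.2 to 49.98, a ratio of 0.995 (0.981 to 1.009), beside a median of 0.963 over 4936 genes. Of the 10 members, 2 were above 1, as were 36.7% of genes. None was at least 25% higher or 20% lower, where 3.4% of genes were higher and 7.86% lower by that much. The ratios ran from 0.914 for Ush1c (0.830 to 1.006) to 1.08 for Cdhr5 (1.04 to 1.12), and Vil1 stood at 0.982 (0.952 to 1.013). The interval lay above 1 for Cdhr5 and below 1 for Myo1a (0.935, 0.896 to 0.975), and the other 8 intervals spanned 1. None of the 10 intervals reached 25% higher or 20% lower.

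**Figure D4:**
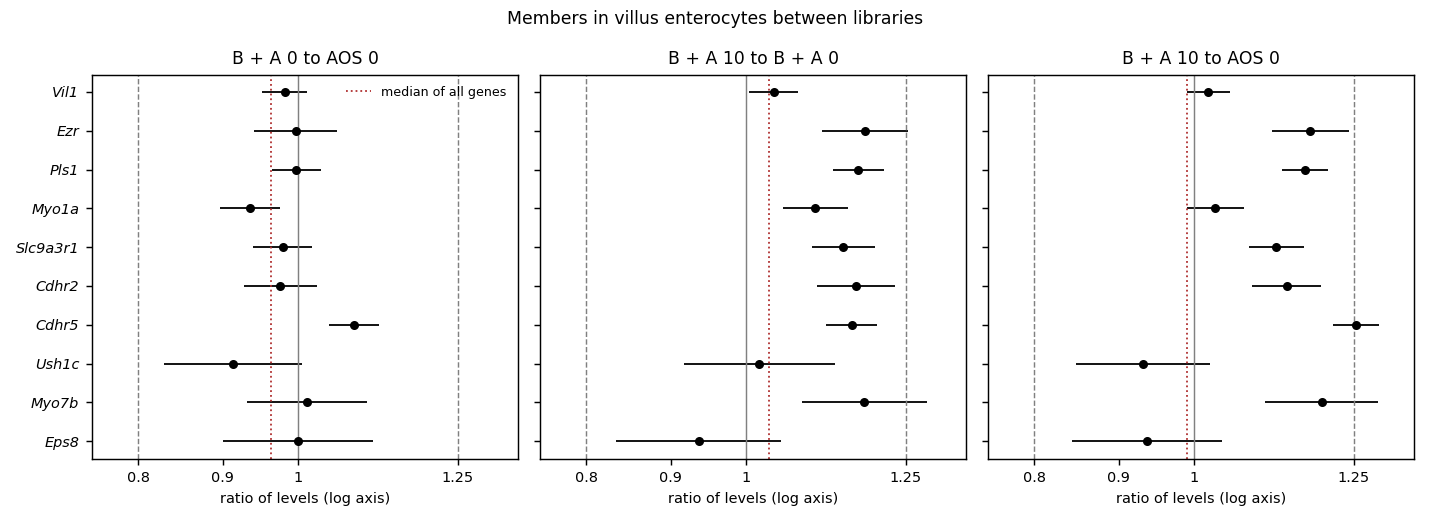
Ratio of the level of each member in villus enterocytes between libraries (log axis), with exact 95% counting intervals, a grey line at 1, dashed lines at 25% higher and 20% lower and a dotted line at the median of all genes. In B + A 10 to B + A 0 the points of 9 members lie above 1, and in B + A 10 to AOS 0 Cdhr5 touches the upper dashed line.

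From B + A 0 to B + A 10 the summed level went from 49.98 to 56.1, a ratio of 1.12 (1.11 to 1.14), and the median over 4432 genes was 1.03. Again no member was at least 25% higher or 20% lower, where 8.53% of genes were higher and 3.02% lower. Of the 10 members, 9 were above 1, as were 58.8% of all genes, and for 8 the interval lay above 1. Myo7b (1.18, 1.08 to 1.29), Ezr (1.18, 1.11 to 1.253), Pls1 (1.17, 1.13 to 1.21), Cdhr2 (1.17, 1.10 to 1.23), Cdhr5 (1.16, 1.12 to 1.20) and Slc9a3r1 (1.15, 1.10 to 1.20) had the higher ratios. Myo1a was at 1.10 (1.05 to 1.15) and Vil1 at 1.04, while Ush1c (1.02, 0.917 to 1.13) and Eps8 (0.936, 0.834 to 1.05) had intervals that span 1.

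Across the whole series, from AOS 0 to B + A 10, the ratio of the sums was 1.12 (1.10 to 1.13), with a median of 0.990 over 5050 genes. Cdhr5 was at 8.18, 8.85 and 10.3 in the 3 libraries, and its ratio of 1.253 (1.21 to 1.29) made it the 1 member at least 25% higher, a limit it passed narrowly (1.20 to 1.28 over the alternatives), where 12.0% of genes were higher and 11.9% lower by the same fold. Of the 10 members 8 were above 1, and 47.9% of genes. Myo7b stood at 1.19, Ezr at 1.18, Pls1 at 1.17, Cdhr2 at 1.14 and Slc9a3r1 at 1.12. Vil1 (1.02), Myo1a (1.03), Ush1c (0.931) and Eps8 (0.936) had intervals that span 1. The 3 comparisons share their libraries and are not independent of each other. The B + A 10 cells were also the shallowest (a median of 2890 UMIs in villus enterocytes, against 6146 in AOS 0 and 5336.5 in B + A 0).

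Depth moved with the members inside a library as well. In each of the 5 villus classes and 3 libraries, cells at or under the median depth were set against those above it. The ratio of the summed level ran from 1.015 (mature enterocytes of B + A 10) to 1.37 (ileal enterocytes of B + A 10), with 13 of 15 intervals above 1 and those of mature enterocytes in B + A 0 (1.05) and B + A 10 spanning 1, and in stem-like cells it ran from 0.999 to 1.09. After thinning each cell to 1000 UMIs, so that each counts equally, the sum ratio was 0.929 from AOS 0 to B + A 0, 1.16 from B + A 0 to B + A 10 and 1.08 from AOS 0 to B + A 10. Then 2 members, Ezr (1.43) and Myo7b (1.34), were at least 25% higher from B + A 0 to B + A 10 and no member was from AOS 0 to B + A 10. Markers of other cells moved too: goblet markers in villus enterocytes were at 32.7, 84.5 and 82.4 UMIs per 10000, and T cell markers at 1.78, 6.22 and 8.24. Markers of the enterocyte classes differed as well. Early markers were at 53.6, 45.5 and 40.5, mid at 150.2, 144.4 and 144.4 and mature at 50.3, 47.4 and 54.9. Proximal markers were at 226.9, 240.5 and 266.8, duodenal at 15.7, 21.9 and 26.8 and ileal at 161.7, 152.5 and 123.4. The part of all these markers in the ratios was not tested.

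The makeup of the villus enterocytes differed between libraries. Mid enterocytes were 32.8%, 32.7% and 31.8% of them in the 3 libraries, and mature enterocytes 21.9%, 20.5% and 21.2%. Proximal enterocytes were 22.8%, 21.9% and 25.5%, duodenal enterocytes 5.70%, 7.79% and 8.77% and ileal enterocytes 16.8%, 17.1% and 12.7%. With equal weight of the classes the sum ratio from AOS 0 to B + A 10 was 1.09. Class by class, the sum from AOS 0 to B + A 0 was above 1 in mid enterocytes (1.07, 1.04 to 1.10) and below 1 in duodenal (0.913, 0.859 to 0.970), proximal (0.955, 0.926 to 0.985) and mature enterocytes (0.935, 0.909 to 0.963). In mature enterocytes Cdhr2 was at 8.27 in AOS 0 and 6.41 in B + A 0, a ratio of 0.775 (0.704 to 0.851) and the 1 member lower by at least 20% there, where 13.7% of genes were. From B + A 0 to B + A 10 the sum was above 1 in all 5 villus classes, at 1.09 in mid, 1.20 in duodenal, 1.13 in proximal, 1.11 in mature and 1.13 in ileal enterocytes. Pls1 in duodenal enterocytes, at 5.98 in B + A 0 and 8.68 in B + A 10, had a ratio of 1.45 (1.246 to 1.69), and with Cdhr5 (1.27) it made 2 of the 7 members measured at least 25% higher there, where 8.45% of 521 genes were.

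In classes outside the villus, from B + A 0 to B + A 10, the sum ratio was 1.246 (1.15 to 1.35) in stem-like, 1.09 in cycling and 1.07 in goblet-like cells, and 0.907 (0.849 to 0.967) in Paneth-like cells. From AOS 0 to B + A 0 the largest ratio stood in Paneth-like cells, 1.90 (1.76 to 2.05), where the enterocyte list went from 24.3 to 73.5 UMIs per 10000 and the median of all genes was 1.16. In stem-like cells only 2 members, Vil1 (1.35, 1.12 to 1.62) and Slc9a3r1 (1.27, 1.007 to 1.60), had 300 UMIs in both libraries together. Both were at least 25% higher in B + A 10, where 5.39% of genes were. Slc9a3r1 passed the limit of 300 UMIs narrowly, with 131 in B + A 0 and 177 in B + A 10. Its higher B + A 10 count helped it pass, so this count of members is not read against the share of genes. Below that limit, Cdhr2 was at 1.62 (1.15 to 2.31) and Cdhr5 at 1.43 (1.12 to 1.84). The enterocyte list there was 49.6 in B + A 0 and 54.7 in B + A 10.

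**Figure D5:**
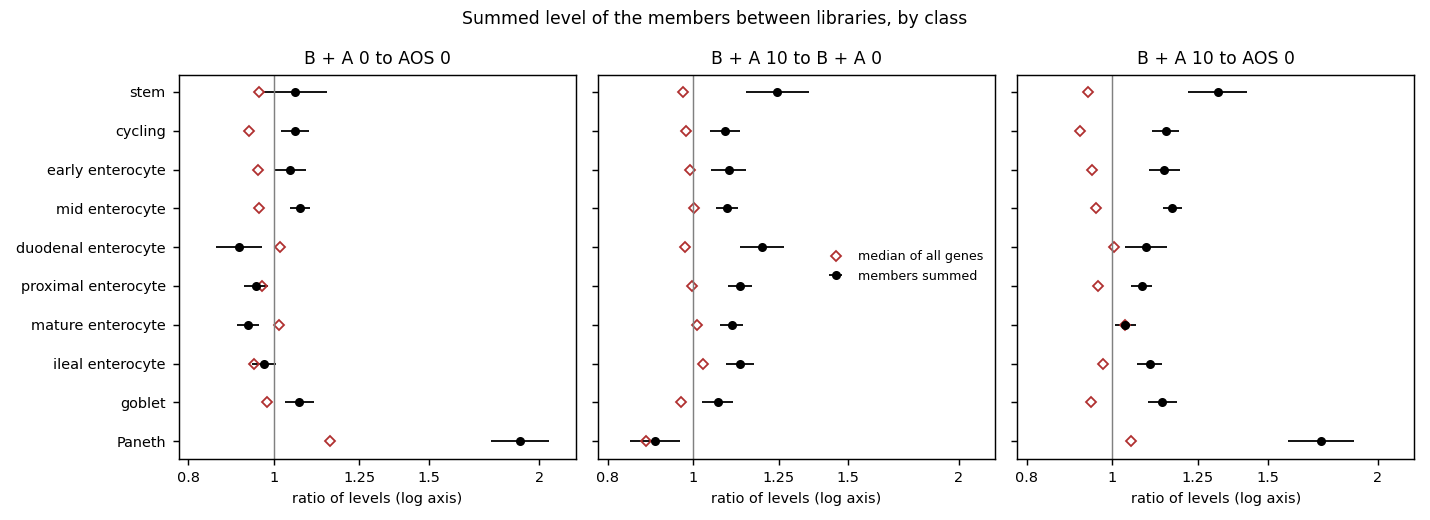
Ratio of the summed member level between libraries in 10 classes (log axis), as black points with exact 95% counting intervals, beside the median ratio of all genes in the class as open diamonds. The points for B + A 10 to B + A 0 lie above 1 in every class but the Paneth-like one, and the Paneth-like points of the other comparisons, 1.90 and 1.72, lie farthest from 1.

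The other genes of the brush border came from a list of 43, of which 41 were in the table and 32 had at least 300 UMIs in villus enterocytes and stem-like cells. Of these, 20 were at least 2-fold higher and 1 was at least 2-fold lower in villus enterocytes, with a median ratio of 2.32 against 6.07 for the members. Actb, a cytoplasmic actin, had the most UMIs (101.2 per 10000, 3.53 times the stem level), while Actg1, the other cytoplasmic actin, was at 13.4 and 0.618 times. The terminal web keratin Krt20 was 15.8 times its stem level and Krt8 2.06 times, Krt19 1.49 times and Krt18, at 0.167 times, the 1 gene lower by 2-fold. Espn, the third bundler, was at 3.80 and 14.7 times, above the step of Vil1 and Pls1. Calml4, a calmodulin-like partner of the adhesion complex, was at 12.8 (2.34 times), with Myh14 (5.51 times), Rab11a (2.30 times) and Capzb (1.55 times) completing the 10 with the most UMIs.

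Some relatives of the members, chosen after their values were seen, were near 0 in the same cells. Msn (moesin), an ezrin relative, had 20 UMIs and Rdx (radixin) 8 in villus enterocytes, where Ezr had 7389. Pls3 had 9 UMIs against 20752 for Pls1, Slc9a3r2 8 against 14184 for Slc9a3r1, and Vill, a villin relative, 0. Msn was at 0.721 UMIs per 10000 in T cell-like cells, so the table does hold its transcripts. Other families differed: Myo1d, a relative of Myo1a, was at 1.21 per 10000 (2741 UMIs) and Myo1e at 0.325 (736 UMIs). The Eps8 relatives Eps8l2 (1.52 per 10000, 3436 UMIs) and Eps8l3 (1.16, 2630 UMIs) were above it (0.931, 2107 UMIs).

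Between libraries, 32 of the other genes were measured in villus enterocytes. From AOS 0 to B + A 0, 2 were at least 25% higher (3.4% of all genes) and 2 at least 20% lower (7.86%). From B + A 0 to B + A 10, 0 were higher (8.53% of all genes) and 1 was lower (3.02%). From AOS 0 to B + A 10, 3 were higher (12.0% of all genes) and 5 were lower (11.9%). Their median ratios in this order were 0.949, 1.02 and 0.966, against 0.989, 1.15 and 1.13 for the members. Actb, the 1 gene of the list past 1.5-fold, was at 81.5 in AOS 0 and 125.6 in B + A 10, a ratio of 1.54 (1.53 to 1.56), with steps of 1.30 from AOS 0 to B + A 0 and 1.18 from B + A 0 to B + A 10. Actg1 stood at 0.903 from AOS 0 to B + A 10, and the keratins Krt19 at 0.692, Krt20 at 0.699 and Krt8 at 0.872. Espn (0.929) and Calml4 (0.919) had ratios below 1 in the comparison in which Pls1 (1.17) and Cdhr5 (1.253) were above it.

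Last, the pattern of the members was set against all genes over 33 sums of a class in a library (at least 50 cells each), on log2(UMIs per 10000 + 0.1). Of 5812 genes, Slc9a3r1 (Pearson r 0.994), Vil1 (0.993) and Pls1 (0.992) were at ranks 1, 2 and 4 by their correlation with the mean of the members, a mean of which they are a part. Cdhr5 (0.954, rank 144) and Myo7b (0.954, rank 148) were least like it. Between pairs of members r ran from 0.848 for Myo7b with Cdhr5 to 0.991 for Slc9a3r1 with Pls1. The 5 genes outside the lists with the highest r were Iqgap2 (0.992), Itch (0.986), Slc7a7 (0.9855), Agpat9 (0.985) and Slc6a8 (0.983). The points share libraries, depth and the classes' marker-based naming, genes are not independent replicates, and over 33 points that mostly contrast crypt and villus many genes of enterocytes have a high r.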

How the data were processed

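Single-cell RNA-seq of intestine was made in 3 libraries with 10x 3′ v2 chemistry and processed by the authors with Cell Ranger 2.2.0, forced to 5000 cells, on mm10. The authors dropped cells under 200 genes and genes in under 3 cells and deposited natural log values, ln(1 + UMIs per 10000). Whole UMI counts were recovered from them: 100% of 24333763 values above 0 lay within 0.01 of a whole number. The libraries held 35258551, 26044381 and 23003083 UMIs, with AOS 0 first and B + A 10 last. B + A 10 has more cells than the forced number, and the cause is not given in the sources used here.

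Cells were joined over the libraries and clustered in Seurat 5.3.0 (R 4.3.3, 20 dimensions, resolution 0.8) without the 10 members and the other brush border genes. A cluster took the class whose list had the most markers, at least 3, among its 10 leading genes, unless another list scored over 0.5 higher or over 50% of its cells were called doublets; this rule was set after the clusters were seen. Of 19 clusters, 16 were given a class. Scrublet scores in scanpy 1.11.5 marked the top 5% of cells per library as doublets; its own threshold marked 15 of 12653, so it was not used, and these cells stayed in except in an alternative. For percentages of cells, each cell was thinned to 1000 UMIs. Named genes were the members, the 10 other brush border genes with the most UMIs in villus enterocytes, those past 1.5-fold between libraries and the 5 genes of the most alike pattern; the other relatives and partners named were chosen after their values were seen. With 1 library per group no test was run: levels have exact Poisson and ratios exact binomial 95% intervals for counting error only. A gene was measured with at least 300 UMIs in both sides together and counted when at least 25% higher or 20% lower (libraries and villus classes) or 2-fold (against stem-like cells). The scripts were tested on simulated data. Members and lists were chosen with earlier results of these data known. Alternatives are given at the end. Another group of the study (AOS 10) is not analysed here.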

Additional observations from a re-analysis of the deposited data

Results flagged for a closer look

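The summed members stood on opposite sides of equal levels in different classes, each with an interval on its side of 1, and the difference between classes was not tested. From AOS 0 to B + A 0 the ratio was above 1 in early enterocytes (1.04), mid enterocytes (1.07), cycling (1.06), goblet-like (1.07), Paneth-like (1.90) and T cell-like cells (1.12). It was below 1 in duodenal (0.913), proximal (0.955) and mature enterocytes (0.935). From B + A 0 to B + A 10 it was above 1 in early (1.10), mid (1.09), duodenal (1.20), proximal (1.13), mature (1.11) and ileal enterocytes (1.13), in stem-like (1.246), cycling (1.09) and goblet-like cells (1.07). It was below 1 in Paneth-like cells (0.907). Each ratio compares 1 library with 1 other, so a difference between mice cannot be told apart from the treatment. The markers of mature enterocytes also differed between libraries inside the villus classes, and their part was not tested.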

How the results depend on the processing

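No paired analysis was possible because each group is 1 library. The 6.56-fold step of the summed members from stem-like cells to villus enterocytes was 6.26 with clusters made without joining the libraries, 5.71 at resolution 1.5, 6.10 with each cell classed by its own marker scores, 6.94 without called doublets, 6.85 after thinning and 5.03 with depth counted without ribosomal, mitochondrial and defensin genes. Only 2 of the 5 clusterings, the main one and that with brush border genes kept, had a cluster classed as mature enterocytes, so at resolution 0.4, at 1.5 and without joining, the villus sum held no class of that name. From AOS 0 to B + A 0 the ratio of 0.995 was 0.929 after thinning, 0.954 as a mean of per-cell values and 0.961 with equal weight of classes. From B + A 0 to B + A 10 the ratio of 1.12 was 1.16 after thinning, with 2 members at least 25% higher, 1.10 by own marker scores and 1.07 with equal weight of bins 6 to 10, an alternative chosen after seeing the data. From AOS 0 to B + A 10 the ratio of 1.12 was 1.09 without joining, by own marker scores and with equal weight of classes, 1.08 after thinning and as a mean of per-cell values, and 1.06 with equal weight of bins. The 1 member at least 25% higher there, Cdhr5, was 0 members in each of these, at resolution 0.4, with brush border genes kept in the clustering and at a fold of 1.5, with its ratio between 1.20 and 1.28 throughout. At 1.5-fold, 2.25%, 1.69% and 4.89% of all genes were past the fold in the 3 comparisons, against 11.3%, 11.6% and 23.9% at the main limits, and with a minimum of 100 UMIs it was 17.2% from AOS 0 to B + A 0. No called ratio of a member changed direction, but between libraries Cdhr5 was the 1 member called in villus enterocytes at the main settings. Ratios nearer to 1 did cross it over the alternatives. Among them, Eps8 ran from 0.890 to 1.14 from B + A 0 to B + A 10. From AOS 0 to B + A 0, Cdhr2 ran from 0.866 to 1.04 and Myo7b from 0.835 to 1.03. Vil1 ran from 0.975 to 1.03 from AOS 0 to B + A 10. The count of members above 1 ran from 1 to 5 from AOS 0 to B + A 0, from 8 to 10 from B + A 0 to B + A 10 and from 6 to 8 from AOS 0 to B + A 10. Keeping only cells of at least 500 genes gave identical ratios between libraries in villus enterocytes. This limit appears to have removed no villus cell, so it is no check of those ratios. The cause of the shifts under the other alternatives was not tested. Depth and 1 library per group limit each value: neither an effect of treatment nor its absence can be read from them.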
